A study of Mus musculus with 16 samples.

Results

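The genes described here are 7 genes of late neutrophil maturation. Ltf, Camp, Ngp and Lcn2 encode proteins of the secondary granules, S100a8 and S100a9 encode the chains of calprotectin, and Padi4 encodes a histone-modifying enzyme of neutrophils. The members were a named list matched by gene symbol, and all 7 were among the 13652 genes counted. The measure of interest was the day at which each gene reached its highest level.

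Secondary, or specific, granules form while a neutrophil precursor passes from myelocyte to metamyelocyte, after the azurophil granules with myeloperoxidase and elastase have been filled. Their contents include the iron-binding protein lactoferrin (Ltf), the antimicrobial peptide precursor cathelicidin (Camp), neutrophilic granule protein (Ngp), a relative of the cathelicidins and cystatins, and lipocalin-2 (Lcn2), which binds bacterial siderophores. Calprotectin, a complex of S100A8 and S100A9, is an abundant cytosolic protein of neutrophils that binds zinc, manganese and calcium. Peptidylarginine deiminase 4 (Padi4) turns arginine into citrulline on histones and takes part in the release of neutrophil extracellular traps.

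RNA was sequenced from AML246, a mouse acute myeloid leukaemia line kept with interleukin-3 and serum. Doxycycline at 0.1 µg/mL was present from day 0 until day 12 and was then removed, a schedule that the title of the series links to PU.1, the transcription factor encoded by Spi1, being restored and later knocked down. Sorted viable cells were taken untreated at day 0, after 4, 8 and 12 days with doxycycline, and 4, 8 and 12 days after its removal (course days 16, 20 and 24). A further group held the Cd11b-high cells sorted at day 12, which are a part of the total cells of that day. Each of the 8 groups had 2 libraries, A and B, of the same line, and the construct that answers to doxycycline is not described in the sources used here. Untreated cells of later days were not analysed here, so the day of the course and doxycycline cannot be told apart. In bulk RNA, fewer cells of a type and less RNA per cell cannot be told apart either.

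S100a8 and S100a9 lie on chromosome 3 (90669071 to 90670034 and 90692630 to 90695721, GRCm38), on opposite strands with 22595 bases between them. Camp (109847377 to 109849456), Ngp (110419808 to 110423012) and Ltf (111019292 to 111042766) follow one another on chromosome 9, with 570351 and 596279 bases between neighbours. Lcn2 lies on chromosome 2 (32384637 to 32387739) and Padi4 on chromosome 4 (140745508 to 140774239). Upstream sequence is shown for both calprotectin genes, whose levels parted over the course, and for Camp and Ltf, granule genes of the same chromosome whose peaks came first and last. The sequences are the 250 bases before the annotated start in RefSeq (GRCm38.p6), read 5′ to 3′ on the strand of the gene. They span chr3:90668821-90669070 (plus strand) for S100a8, chr3:90695722-90695971 (minus) for S100a9, chr9:109849457-109849706 (minus) for Camp and chr9:111019042-111019291 (plus) for Ltf. Capitals mark matches, on either strand, to an ETS core (AGGAAG), a C/EBP motif (TTNNGNAA) or a GATA core (AGATAA).
S100a8: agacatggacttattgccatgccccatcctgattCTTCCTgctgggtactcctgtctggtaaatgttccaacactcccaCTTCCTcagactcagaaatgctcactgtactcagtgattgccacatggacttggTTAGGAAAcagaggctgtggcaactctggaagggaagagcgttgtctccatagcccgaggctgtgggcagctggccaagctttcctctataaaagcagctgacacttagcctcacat
S100a9: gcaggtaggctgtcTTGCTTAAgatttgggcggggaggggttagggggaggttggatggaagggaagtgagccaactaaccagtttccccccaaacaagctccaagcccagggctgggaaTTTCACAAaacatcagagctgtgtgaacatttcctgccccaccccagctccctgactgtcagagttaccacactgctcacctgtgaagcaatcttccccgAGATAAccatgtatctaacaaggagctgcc
Camp: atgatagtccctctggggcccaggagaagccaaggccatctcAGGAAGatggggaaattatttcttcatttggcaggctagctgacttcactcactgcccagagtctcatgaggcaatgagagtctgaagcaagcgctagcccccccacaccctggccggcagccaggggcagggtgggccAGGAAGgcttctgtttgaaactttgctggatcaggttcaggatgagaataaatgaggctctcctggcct
Ltf: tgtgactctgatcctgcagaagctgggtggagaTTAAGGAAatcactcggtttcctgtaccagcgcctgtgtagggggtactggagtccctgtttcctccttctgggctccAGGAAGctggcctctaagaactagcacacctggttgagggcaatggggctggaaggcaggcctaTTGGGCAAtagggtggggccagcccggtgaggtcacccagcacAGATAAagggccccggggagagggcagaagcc

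In the full 300-base window, which runs 50 bases past the start, the ETS core was found in 5 of the 7 member promoters and in 35.4% of all 32851 promoters of the RefSeq table. The C/EBP motif was found in 5 of 7, against 40.7% of all promoters, and the GATA core in 2 of 7, against 11.2%. S100a8 had 2 ETS matches and S100a9 had none in this window, while both had the C/EBP motif. Camp had 2 ETS matches and no C/EBP match, and Ltf held all 3 motifs. These matches describe the letters only.

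Total counts ran from 12962801 to 26509803 per library. Spi1 stood at 61.5 ± 6.69 CPM (the standard depth-normalised read count, TMM-scaled, as mean ± SD, n = 2 here and below) at day 0 and at 239 ± 13.8 at day 4, and Itgam, which encodes Cd11b, at 1.59 ± 0.252 and 559 ± 92.4. Among replicate pairs, the libraries 12 days after withdrawal stood apart, with a chi-square per degree of freedom of 73.5 against 2.97 to 18.9 in the other 7 groups. Calls of the 7 genes that rest on them are given below with and without each library. The day 0 pair differed as well, with Epx, an eosinophil granule peroxidase, at 4930 CPM in A and 1937 in B. A gene was called at an adjusted p under 0.05 by the quasi-likelihood test of edgeR, fitted to all 16 libraries and adjusted over all genes.

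**Figure D1:**
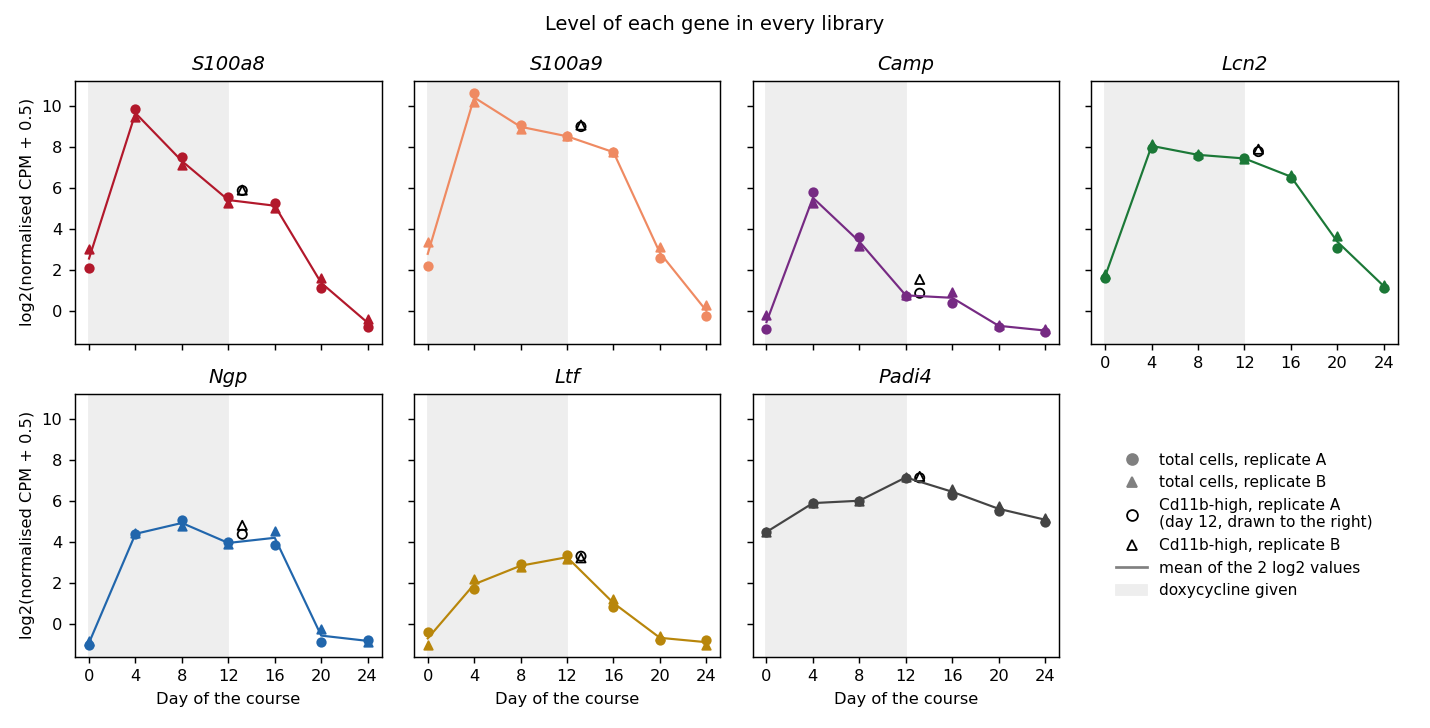
Level of each of the 7 genes in every library, as log2(normalised CPM + 0.5) on the vertical axis against the day of the course. Circles and triangles are libraries A and B, lines join the means of their log2 values, open symbols are the Cd11b-high cells of day 12 (drawn to the right of it), and the grey band is the time on doxycycline. S100a8, S100a9, Camp and Lcn2 stand highest at day 4, Ngp at day 8, and Ltf and Padi4 at day 12.

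All 7 genes were higher on doxycycline than at day 0, but they reached their highest levels on 3 different days. By group mean, S100a8, S100a9, Camp and Lcn2 peaked at day 4, Ngp at day 8, and Ltf and Padi4 at day 12. The day of the peak was the same in libraries A alone and in libraries B alone. At day 4, 7 of 7 genes were called higher than at day 0, beside 28.2% of all genes, and their median log2 fold was 7.18 against -0.05 over all genes. Over the same 4 days markers of other cells moved too, beside 31% of all genes called lower: 5 of 9 eosinophil markers were lower and 2 higher (summed level 5181 and 2079 CPM at day 0, 212 and 252 at day 4), and 6 of 7 markers of basophils and mast cells lower and 0 higher (3027 and 2444 CPM, then 682 and 796). Their part in the result was not tested. At day 8 and at day 12 again 7 of 7 were called higher, beside 27% and 30% of all genes. These 3 comparisons share the day 0 libraries. The files lack low genes, and Ltf, Camp and Ngp had 5, 6 and 1 reads at day 0. These 3 genes could be counted only through groups where they were higher. Their calls above day 0 were thus in part fixed in advance.

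At day 4 and day 8 the calprotectin genes had the highest levels per length of the 7, and both fell between these days. At day 12 S100a9 was still first per length, but Lcn2 was above S100a8, and at 8 and 12 days off Padi4 was first. S100a8 stood at 3.81 and 7.67 CPM in libraries A and B of day 0, at 928.5 and 697 at day 4, at 182 and 139 at day 8, and at 47.4 and 37.7 at day 12. The day 4 libraries were the highest of the course, and every later doxycycline library was below them and above day 0. The rise to day 4 was 145-fold (log2 fold 7.18, SE 0.30, edgeR adjusted p = 3.1e-10). From day 4 to day 12 S100a8 fell 19.1-fold (log2 fold -4.26, SE 0.25, edgeR adjusted p = 6.8e-08), in steps of 5.07-fold to day 8 and 3.77-fold to day 12, both called.

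S100a9, the partner chain, started about as low per length and had more of its day 4 level left at day 12. It stood at 4.19 and 9.81 CPM at day 0, at 1586 and 1170 at day 4, at 545 and 470 at day 8, and at 367 in both libraries of day 12. Here too the day 4 libraries lay above all others, but the day 12 libraries stayed far above day 0. The rise to day 4 was 203-fold (log2 fold 7.66, SE 0.32, edgeR adjusted p = 3.5e-10), and without day 0 library B its log2 fold was 8.36. The fall to day 8 was 2.72-fold (edgeR adjusted p = 0.0013), and the further log2 fold of -0.47 to day 12 did not pass (SE 0.23, edgeR adjusted p = 0.36). At day 4, S100a9 ranked 4th and S100a8 7th of all 13652 genes on the per-length scale, at 2824 and 2073 RPKM (CPM divided by the deposited gene length in kilobases).

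Within each library the balance of the chains shifted toward S100a9. Per length, the ratio of S100a9 to S100a8 was 0.884 and 1.03 at day 0, 1.37 and 1.35 at day 4, 2.41 and 2.72 at day 8, and 6.23 and 7.83 at day 12. Both libraries of each doxycycline day were above both libraries of the previous sampled day. After withdrawal it was 4.49 and 5.47 at 4 days and 2.59 and 2.52 at 8 days. The ratios are a description of these libraries and were not tested.

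**Figure D2:**
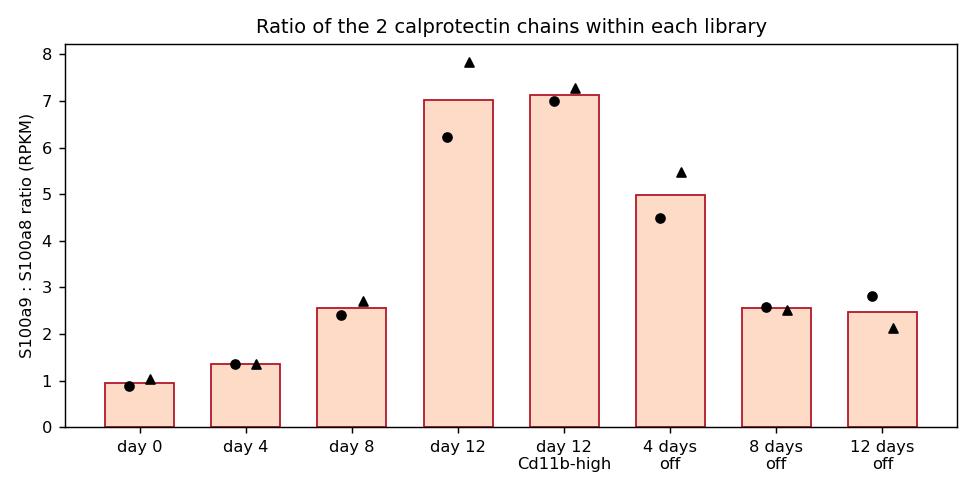
Ratio of S100a9 to S100a8 on the RPKM scale (vertical axis) in each group of libraries. Bars are means of the 2 libraries, and circles and triangles are libraries A and B. The ratio lies near 1 at day 0, between 6.23 and 7.83 at day 12 and at 7.0 and 7.27 in the Cd11b-high cells.

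Camp, the cathelicidin gene, peaked at day 4 and came down to 2.61% of its peak by day 12. It stood at 0.0544 and 0.369 CPM at day 0, at 55.0 and 37.9 at day 4, at 11.8 and 8.48 at day 8, and at 1.19 and 1.24 at day 12. The day 4 libraries were well above every other library, and the day 12 libraries, far below them, still lay above both day 0 libraries. The rise to day 4 was 238-fold (log2 fold 7.89, SE 0.44, edgeR adjusted p = 2.1e-09). Only 6 reads stood behind the day 0 value, and the log2 fold was 6.95 without day 0 library A and 9.59 without B.

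From day 4 to day 12 Camp fell 38.1-fold (log2 fold -5.25, SE 0.32, edgeR adjusted p = 5.9e-08), and 0 of the 13652 genes had a lower log2 fold in that comparison. For S100a8, 6 genes had a lower one. What remained of Camp at day 12 was still called higher than at day 0 (log2 fold 2.64, SE 0.66, edgeR adjusted p = 0.0026). Without day 0 library A that call was lost (log2 fold 1.70, edgeR adjusted p = 0.066), and without B the log2 fold was 4.33.

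Lcn2, the lipocalin gene, rose with calprotectin and then stayed high. Its levels were 2.56 and 3.02 CPM at day 0, 246 and 287 at day 4, 190 and 202 at day 8, and 177 and 170 at day 12. All 6 doxycycline libraries of total cells were far above day 0, and the day 4 libraries did not overlap those of day 12. The rise to day 4 was 96.0-fold (log2 fold 6.59, SE 0.20, edgeR adjusted p = 4.7e-12). The fall from day 4 to day 12 was 1.53-fold (log2 fold -0.62, SE 0.14, edgeR adjusted p = 0.0047). Without day 12 library B the log2 fold was -0.59 and the edgeR adjusted p was 0.053. The step from day 4 to day 8 was called (log2 fold -0.44, edgeR adjusted p = 0.048), but not after leaving out any 1 of its 4 libraries (edgeR adjusted p from 0.074 to 0.28).

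Ngp was the only one of the 7 with its highest group mean at day 8. It had 0 reads in library A and 1 in library B of day 0, and stood at 20.4 and 21.1 CPM at day 4, 33.6 and 27.0 at day 8, and 15.5 and 14.7 at day 12. The day 8 libraries lay above those of day 4, which lay above those of day 12. The depth-scaled ratio of reads from day 0 to day 4 was 661, with an exact 95% counting interval from 118 to 26100 that covers counting error only. The step from day 4 to day 8 did not pass (log2 fold 0.55, SE 0.23, edgeR adjusted p = 0.14), so the peak at day 8 is the order of the means and not a called difference from day 4. Ngp fell 2.01-fold from day 8 to day 12 (edgeR adjusted p = 0.039), a call lost after leaving out any 1 of the 4 libraries (edgeR adjusted p from 0.098 to 0.46).

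Ltf, the lactoferrin gene, had the lowest level per length of the 7 at day 4 and was among those that went up to day 12. It stood at 0.272 and 0 CPM at day 0, at 2.77 and 4.07 at day 4, at 7.16 and 6.31 at day 8, and at 9.76 and 8.55 at day 12. No library of a doxycycline day overlapped those of another. From day 4 to day 12 Ltf rose 2.68-fold (log2 fold 1.42, SE 0.27, edgeR adjusted p = 0.0015). The step from day 8 to day 12 did not pass (log2 fold 0.44, SE 0.27, edgeR adjusted p = 0.45). The peak of Ltf at day 12 is thus the order of the means and not a called difference from day 8. Relative to untreated cells its log2 fold at day 12 was 5.82 (SE 0.47, edgeR adjusted p = 8.8e-08), or 5.04 without day 0 library B. Without library A no Ltf read was left at day 0. The step from day 4 to day 8 was called (edgeR adjusted p = 0.031), but not without day 4 library A (edgeR adjusted p = 0.27), day 8 library A (0.16) or day 8 library B (0.12).

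Padi4, the deiminase gene, rose over a narrower range than the other 6 and went up in separate steps. It stood at 22.4 and 21.8 CPM at day 0, at 59.6 and 59.0 at day 4, at 64.3 and 64.4 at day 8, and at 140 and 144 at day 12. The replicates were close on each of these days, and the day 12 libraries were far above the rest. Padi4 rose 2.69-fold to day 4 (log2 fold 1.43, SE 0.12, edgeR adjusted p = 1.7e-07). From day 4 to day 8 its log2 fold was 0.12 (SE 0.12, edgeR adjusted p = 0.57), and from day 8 to day 12 it rose 2.21-fold (edgeR adjusted p = 6.8e-05). At day 12 it was 6.43-fold above day 0.

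**Figure D3:**
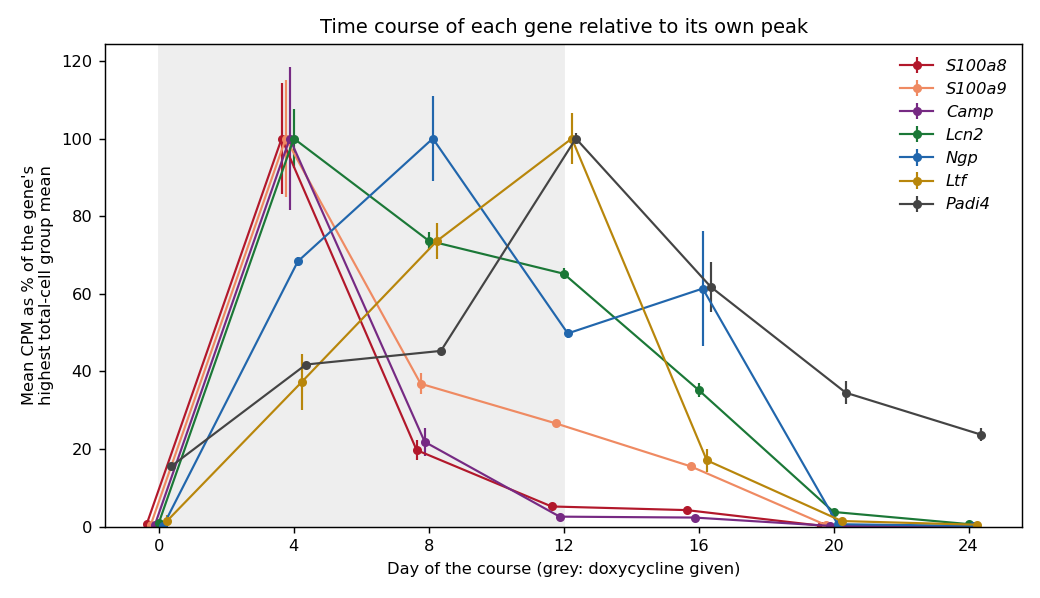
Mean CPM of each gene as a percentage of its highest total-cell group mean (vertical axis) against the day of the course. Vertical bars run from one library to the other, points are set slightly apart around each day for legibility, and the grey band is the time on doxycycline. At day 12 Camp is at 2.61% and S100a8 at 5.23% of their peaks, while Ltf and Padi4 are at 100%.

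Between day 4 and day 12, the comparison that parts the early from the late genes, 2 of the 7 were called higher, beside 14.7% of all genes, and 4 lower, beside 12.3%. Between day 4 and day 8, 1 was called higher (Ltf), beside 6.78% of all genes, and 4 lower, beside 7.16%. Between day 8 and day 12, 1 was called higher (Padi4), beside 1.82% of all genes, and 3 lower (Camp, S100a8 and Ngp), beside 0.425%. Whether the course of one gene differed from that of another was not tested.

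Markers of other cells moved between day 4 and day 12, when 14.7% of all genes were called higher and 12.3% lower. All 9 eosinophil markers were called higher at day 12 than at day 4, and their summed level was 212 and 252 CPM at day 4 and 8311 and 9260 CPM at day 12. Ccr3 stood at 0.493 CPM at day 4 and 12.7 at day 12, and Prg2, the major basic protein gene, at 29.4 and 3221. The 7 basophil and mast cell markers in the files were also all called higher, from a sum of 682 and 796 CPM to one of 2222 and 2232. Of 9 measured neutrophil markers, which include Ltf, Camp and Ngp, 2 were called higher and 4 lower, and their sum was 332 and 303 CPM at day 4 and 221 and 202 at day 12. Csf3r, the G-CSF receptor gene, made up most of that sum. The part of these marker genes in the results above was not tested.

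Against day 0, all 9 measured neutrophil markers, again including Ltf, Camp and Ngp, were called higher at day 4 and at day 12. Over all genes 28.2% and 30% were called higher at these times. Markers with almost no reads at day 0 (Retnlg, Mmp8, Ltf, Camp and Ngp) could be counted only through groups where they were higher. Their calls above day 0 were thus in part fixed in advance. The markers started from very different levels, and Mmp9, also listed, was not in the files. Csf3r stood at 134.5 CPM at day 0, 218 at day 4 and 165 at day 12, and Cd177, a neutrophil surface glycoprotein, at 0.610, 9.65 and 7.66. Ly6g, a surface antigen of mouse neutrophils, stood at 0.503 ± 0.0192 CPM at day 0, 3.42 ± 0.438 at day 4 and 1.63 ± 0.151 at day 12. Mmp8, the neutrophil collagenase, stood at 0.0272, 5.44 and 3.25 CPM at these times, and Cxcr2, a chemokine receptor, at 2.45, 10.1 and 7.82. Retnlg had no read at day 0 and stood at 0.927 CPM at day 12.

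**Figure D4:**
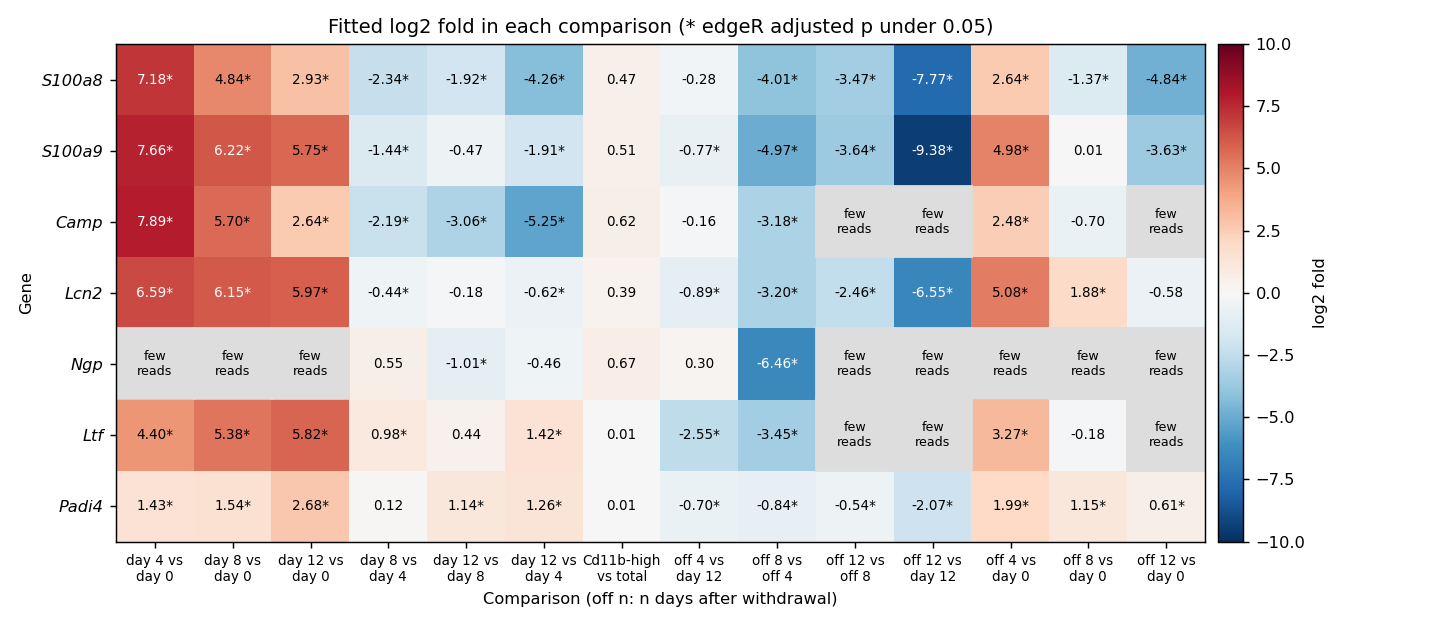
Fitted log2 fold of each gene (rows) in each of the 14 comparisons (columns), red for higher and blue for lower in the group named first. An asterisk marks an edgeR adjusted p under 0.05, and grey cells are comparisons in which a group had 3 reads or fewer. Day 12 against day 4 holds both red cells (Ltf and Padi4) and blue cells (Camp -5.25, S100a8 -4.26).

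At 4 days after doxycycline was removed, the share of the day 12 mean that was left ran from 17.1% for Ltf to 123% for Ngp. Whether one gene fell faster than another was not tested. At 4 days off, 4 of 7 were called lower than at day 12 and 0 higher, beside 18.8% of all genes lower. Ltf stood at 1.3 and 1.83 CPM, 17.1% of its day 12 mean, with both libraries far below day 12 (log2 fold -2.55, SE 0.31, edgeR adjusted p = 2.4e-05). Lcn2 was at 88.7 and 98.8 CPM, or 54.0% of day 12 (edgeR adjusted p = 0.00024), and Padi4 at 78.6 and 96.9 CPM, or 61.8% (edgeR adjusted p = 0.00031). Both genes were below day 12 in each library. Over this step all 9 eosinophil markers were called lower as well, with a summed level of 1168 and 1331 CPM at 4 days off, as were 4 of 7 markers of basophils and mast cells (1741 and 1762 CPM). Their part in these falls was not tested.

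S100a9 was at 213 and 217 CPM, or 58.5% of day 12 (log2 fold -0.77, SE 0.23, edgeR adjusted p = 0.019). That call was lost after leaving out any 1 of the 4 libraries (edgeR adjusted p from 0.067 to 0.11) and with DESeq2 (adjusted p = 0.065). S100a8 at 38.0 and 31.8 CPM, Camp at 0.815 and 1.39 CPM and Ngp at 14.1 and 23.1 CPM overlapped their day 12 libraries and were not called. Of the 7, Ltf had the smallest share of its day 12 level left. At this time Spi1 stood at 60.8 CPM and Itgam at 69.7.

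Between 4 and 8 days off all 7 genes were called lower, beside 12.4% of all genes. Ngp went to 0.0470 and 0.353 CPM from 14.1 and 23.1, a fall of 87.9-fold (log2 fold -6.46, SE 0.42, edgeR adjusted p = 2.8e-07). Its log2 fold was -5.69 without library A of 8 days off and -8.44 without library B. S100a9 went to 5.46 and 8.17 CPM (31.4-fold lower), S100a8 to 1.69 and 2.60 (16.1-fold), Ltf to 0.0941 and 0.177 (10.9-fold), Lcn2 to 8.09 and 12.2 (9.20-fold) and Camp to 0.0941 and 0.132 (9.09-fold). Padi4, at 44.9 and 53.2 CPM, was only 1.79-fold lower. None of these 8-day libraries overlapped those of 4 days off. The share of all genes without such overlap was not counted.

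From 8 to 12 days off, 4 genes were called lower (Lcn2, S100a8, S100a9 and Padi4), beside 2.18% of all genes. Lcn2 went to 1.72 and 1.96 CPM (log2 fold -2.46, SE 0.21, edgeR adjusted p = 6e-05) and S100a9 to 0.344 and 0.730 (log2 fold -3.64, SE 0.45, edgeR adjusted p = 0.001). S100a8 went to 0.0982 and 0.274 CPM, on 2 and 6 reads (edgeR adjusted p = 0.0093), and Padi4 to 31.4 and 36.0 (edgeR adjusted p = 0.023). The calls of S100a8 and Padi4 were lost without library B of 8 days off (edgeR adjusted p = 0.11 and 0.27) and without library A of 12 days off (edgeR adjusted p = 0.16 and 0.11). Without library A of 12 days off the log2 fold of Lcn2 was -2.37 and that of S100a9 -3.22, both called (edgeR adjusted p = 0.00036 and 0.023). Without library B all 4 were called, with log2 folds of -2.52 for Lcn2, -4.34 for S100a8, -4.25 for S100a9 and -0.60 for Padi4. In a fit of the 4 libraries alone 0 of the 7 and 0 genes in all were called.

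Over the whole withdrawal all 7 genes were called lower than at day 12, beside 32.4% of all genes. At 12 days off S100a9 was at 0.146% of its day 12 mean, S100a8 at 0.437%, Lcn2 at 1.06% and Padi4 at 23.7%. The value of S100a8 rested on 2 and 6 reads in libraries A and B, and that of S100a9 on 7 and 16. Ltf had 2 reads in library A and 0 in B, Ngp 2 and 1, and Camp 0 and 1. Their depth-scaled ratios of reads, day 12 over 12 days off, were 193 for Ltf (exact 95% counting interval 53.0 to 1600), 212 for Ngp (72.3 to 1030) and 51.3 for Camp (8.85 to 2060). All 7 calls held without either library of 12 days off. The log2 fold of S100a8, -7.77, was -7.25 without A and -8.64 without B, and that of S100a9, -9.38, was -8.96 and -10.00. For Lcn2 the values were -6.55, -6.46 and -6.62, and for Padi4 -2.07, -1.98 and -2.14.

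Measured against day 0, the calls of the 7 genes differed between the times after withdrawal. At 4 days off all 7 were still called above day 0, beside 18.8% of all genes, with Lcn2 33.8-fold and S100a9 31.6-fold higher. For Ngp, with 1 read at day 0, the depth-scaled ratio of reads was 583 (exact 95% counting interval 104 to 23100). The call of Camp there was lost without day 0 library A (edgeR adjusted p = 0.16) and without library B of 4 days off (0.095). The log2 fold of Ltf, 3.27, was 2.49 without day 0 library B, that of S100a9, 4.98, was 5.68 without that library, and that of Camp, 2.48, was 4.17 without it. At 8 days off 2 were called higher, beside 16.2% of all genes, namely Lcn2 (log2 fold 1.88, SE 0.20) and Padi4 (1.15, SE 0.12). S100a8 was the 1 called lower (-1.37, SE 0.34), beside 16.9% of all genes. In a list of 7 these counts at 8 days off were not far from the background. The call of S100a8 was lost without day 0 library B (edgeR adjusted p = 0.11) and without library A of 8 days off (0.067).

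At 12 days off the calprotectin genes were below untreated cells and Padi4 was above them. This was 1 gene of 7 called higher, beside 21.6% of all genes, and 2 lower, beside 22%, so the share of members called was near the background. S100a8 stood at 0.186 ± 0.124 CPM against 5.74 ± 2.73 at day 0 (log2 fold -4.84, SE 0.54, edgeR adjusted p = 1e-05). S100a9 stood at 0.537 ± 0.273, below the 7.0 ± 3.98 of day 0 (log2 fold -3.63, SE 0.46, edgeR adjusted p = 3e-05). In both genes the highest library of 12 days off was below the lowest of day 0. At 12 days off only 8 reads of S100a8 and 23 of S100a9 stood behind these values. The log2 fold of S100a8 was -4.31 without library A of 12 days off and -5.65 without B, and that of S100a9 was -3.19 and -4.19, all called. Without day 0 library B that of S100a9 was -2.93. Padi4 stood at 33.7 ± 3.26 CPM, above the 22.1 ± 0.450 of day 0 (log2 fold 0.61, SE 0.12, edgeR adjusted p = 0.0011), a call kept without library A of 12 days off (log2 fold 0.71) and without B (0.59), and lost in a fit of the 4 libraries alone (edgeR adjusted p = 0.066). Lcn2, at 1.84 ± 0.172 against 2.79 ± 0.332 CPM, did not pass (log2 fold -0.58, SE 0.25, edgeR adjusted p = 0.073), nor without library A (0.24) or B (0.16).

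The Cd11b-high cells of day 12 were set against the total cells they are part of. Itgam, the gene of the sorted marker, stood at 912 ± 40.2 CPM in the sorted cells and at 694.5 ± 35.3 in total cells. None of the 7 genes was called, and 0.0146% of all genes were. Ngp stood at 20.4 and 27.7 CPM in the sorted cells against 15.5 and 14.7 in total cells (log2 fold 0.67, SE 0.24), S100a9 at 509 and 537 against 367 in both (0.51, SE 0.23), and Lcn2 at 219 and 237 against 177 and 170 (0.39, SE 0.14). In these 3 genes both sorted libraries lay above both total ones. The same order held for S100a8 and Camp, while Ltf (log2 fold 0.01, SE 0.25) and Padi4 (0.01, SE 0.11) overlapped. The edgeR adjusted p was 1 for each of the 7, and 3 had an unadjusted p under 0.05. The share of all genes with both sorted libraries above both total ones, or with such an unadjusted p, was not counted. DESeq2 and limma-voom also called 0, and a fit of the 4 libraries alone called 4 (Ngp, Lcn2, S100a8 and S100a9).

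Other genes of secondary granules and late neutrophils were read from a textbook list of 30, of which 22 were in the files. The rest, among them Chil3, Mmp9 and Cybb, were absent from the files, which lack low genes. A gene with almost no reads at day 0 could thus be counted only through groups where it was higher. At day 4, 21 of the 22 were called higher than at day 0 and 1 lower (median log2 fold 2.53). At day 12, 19 were called higher and 1 lower (median 2.30). Over all genes 28.2% were called higher and 31% lower at day 4, and 30% and 33.4% at day 12, which is the background for this and the lists that follow. The 1 lower gene was Arg1, arginase, at 1.02 CPM at day 0 and 0.251 at day 12. Ceacam1, an adhesion receptor, stood at 4.49 CPM at day 0 and 55.6 at day 12. Pglyrp1, a peptidoglycan-binding granule protein, stood at 52.6 and 387 CPM, and Lyz2, lysozyme, at 56.1 and 337. Between day 4 and day 12, 3 of the 22 were called higher, beside 14.7% of all genes, and 9 lower, beside 12.3% (median -0.26). Lyz2 fell 3.35-fold, Pglyrp1 rose 1.49-fold and Wfdc21, named after its values were seen, went from 5.90 to 0.353 CPM (log2 fold -4.08, SE 0.36). At 12 days off 21 of the 22 were called lower than at day 12, beside 32.4% of all genes, and 0 higher. This count was not repeated without either library of 12 days off.

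**Figure D5:**
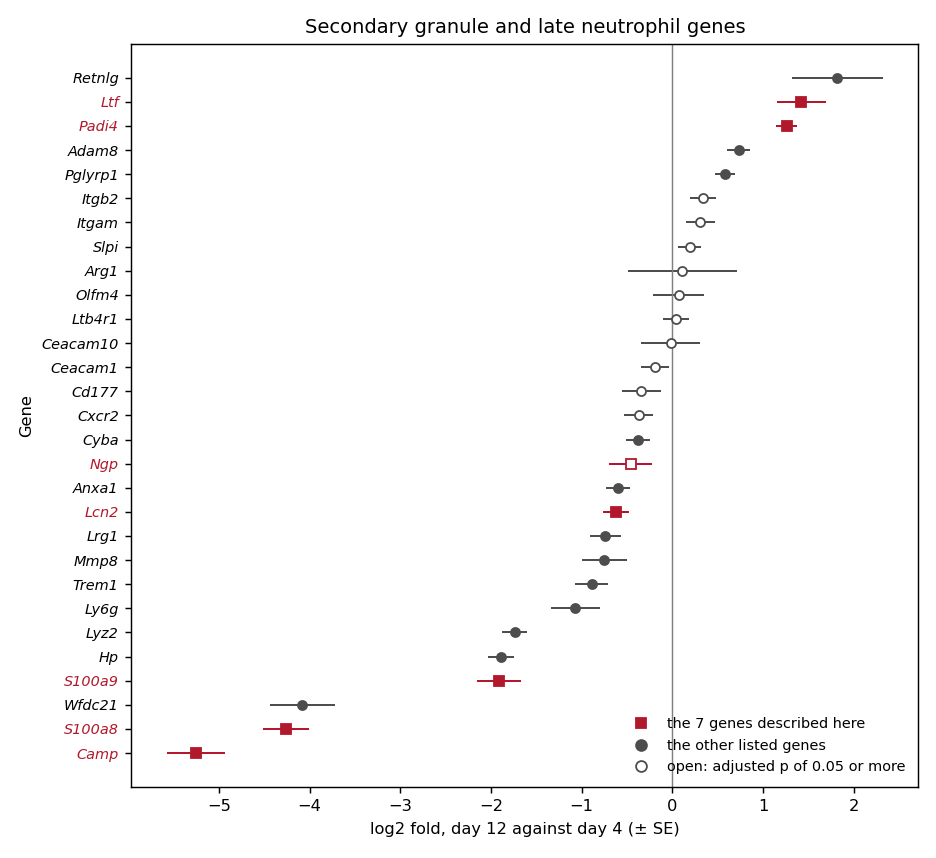
Log2 fold from day 4 to day 12 (horizontal axis, bars ± SE) of the 7 genes, as red squares, and of the 22 other listed genes of secondary granules and late neutrophils, as grey circles. Filled symbols passed the edgeR test and open ones did not. Camp lies lowest at -5.25, and Ltf at 1.42 and Padi4 at 1.26 are among the highest.

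Azurophil granule genes, whose products are made earlier in the lineage, went in both directions. Of 10 listed genes 9 were in the files, with 4 called higher and 3 lower at day 4 than at day 0, and 2 higher and 5 lower at day 12. Mpo, myeloperoxidase, fell from 602 CPM at day 0 to 70.1 at day 4 and 30.3 at day 12. Prtn3, proteinase 3, was at 451, 782 and 117 CPM on these days, and Elane, neutrophil elastase, at 79.5, 118 and 11.2. For both, the rise to day 4 and the fall from day 4 to day 12 passed the edgeR test (adjusted p of at most 0.013). Both were thus higher at day 4 than at day 0 or day 12, as S100a8 and Camp were. Ctsg, cathepsin G, fell at both steps, from 224 to 80.5 and 35.2 CPM.

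The 7 measured Stfa and Cstdc genes, which encode stefins, small inhibitors of cysteine proteases, had their highest group means at day 4. Of 12 stefins and cystatins listed 10 were in the files, and 8 were called higher and 2 lower at day 4 than at day 0. Between day 4 and day 12, 7 were called lower, beside 12.3% of all genes, and 1 higher, beside 14.7%. Cstdc5 stood at 3.21 and 5.61 CPM at day 0, 735 and 537 at day 4, and 128 and 133 at day 12. Stfa1 stood at 2.96, 173 and 33.3 CPM as means of these days, Cstdc4 at 0.340, 114 and 15.9, and Cstdc6 at 0.118, 11.9 and 3.31. The Stfa and Cstdc genes are near-identical copies of one another, so the division of reads among them is uncertain.

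Relatives of the calprotectin chains were called in both directions, and the measured relative of Padi4 was highest on the same day as Padi4. Of 16 other S100 genes 7 were in the files, and 4 were called higher and 2 lower at day 12 than at day 0. S100a11 rose from 51.8 to 104 CPM and S100a4 from 0.483 to 1.70, whereas S100a10 fell from 126 to 58.0 and S100a1 from 40.3 to 19.8. The only other deiminase in the files was Padi2. It stood at 7.39 and 4.06 CPM at day 0, 13.8 and 16.1 at day 4, 20.3 and 23.2 at day 8, and 49.4 and 47.7 at day 12. Padi2 was thus highest at day 12 in both libraries, as Padi4 was (log2 fold over day 0 3.05, edgeR adjusted p = 1e-08), and it stood at 13.04, 6.44 and 5.90 CPM at 4, 8 and 12 days off.

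Receptors for the secreted products were a list of 13, of which 8 were in the files. At day 4, 6 were called higher than at day 0 and 0 lower, and at day 12, 3 higher and 1 lower. Emb, embigin, and Bsg, basigin, have been described as receptors for calprotectin chains. Emb rose from 244 CPM at day 0 to 829 at day 12, and Bsg from 846 to 1150. Ager, the receptor for advanced glycation end products, fell from 22.3 to 13.6 CPM. Cd33 had no read at day 0 and stood at 4.18 CPM at day 4 and 1.64 at day 12. Tlr4, a receptor for calprotectin that was named after its values were seen, stood at 11.4 CPM at day 0, 54.0 at day 4 and 11.1 at day 12.

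Regulators of granulocyte maturation were called in both directions. Of 15 listed transcription factors and receptors 13 were in the files, with 6 called higher and 3 lower at day 12 than at day 0 (median log2 fold 0.08, against -0.07 over all genes), a share near that of all genes. Stat3, which transmits the G-CSF signal, rose from 119 to 295 CPM and Fosl2 from 25.9 to 73.3, while Gfi1, a repressor needed for neutrophil formation, fell from 388 to 178. Cebpe, the factor of secondary granule genes, was named after its values were seen. It stood at 587 CPM at day 0, 543 at day 4, 568 at day 8 and 519 at day 12, with a log2 fold of -0.18 from day 0 to day 12 (edgeR adjusted p = 0.29).

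For each member the 3 genes with the most similar course were taken by Pearson correlation of log2(CPM + 0.5) over the 16 libraries, among named genes that reached a group mean of 10 CPM. The libraries share cells, doses and days, so these values describe likeness only. Ltf was most like Vps53 (r = 0.993), Scamp2 and Trim12c, and Camp most like Gpc2 (0.946), Ltbr and Wls. S100a8 was most like Pram1 (0.986), Zfyve27 and Stard8, and S100a9 most like Mcemp1 (0.992), Tlr7 and Slc40a1. Lcn2 was most like Lrg1 (0.987), Olfm4 and Pde2a. Ngp was most like Crat (0.977), Mapk13 and R3hdm4, and Padi4 most like Inpp5d (0.967), Mgll and Surf4. The choice was not stable: of 21 sets taken with another pseudocount, scaling or group means, 11 shared at least 2 of the 3 genes and 3 shared 0, of which 2 were sets of Camp and 1 of Ltf. Between members, r was highest for Lcn2 with S100a9 (0.98) and lowest for Camp with Padi4 (0.28).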

How the data were processed

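RNA-seq of 16 libraries in 8 groups of 2, placed by their titles, was used as deposited: whole-number read counts per Entrez gene with gene lengths, per the file headers. Column-purified RNA of sorted cells was sequenced on a NextSeq500, per the labels' protocols. The tools named are featureCounts, limma and edgeR, with the mm10 build, per the submitters' processing notes. The aligner and the strand setting are not given in the sources used here. In every listed gene the third highest CPM was at least 0.501, so low genes had been left out before deposit. Symbols came from a RefSeq GRCm38 table (13216 of 13652 genes matched).

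Counts were TMM-normalised and tested with the edgeR 4.0.16 quasi-likelihood F test (robust, 1 mean per group, all 16 libraries, 8 residual degrees of freedom, common biological coefficient of variation 10.9%), two-sided, with Benjamini-Hochberg adjustment over all genes within each of 14 comparisons (R 4.3.3). The low-count filter filterByExpr removed 0 genes. Whether libraries A and B came from separate cultures is not in the labels, so the spread behind the p-values may be technical. RPKM was computed from CPM and the deposited lengths. Groups with 1 to 3 reads are given as ratios of reads with an exact 95% conditional binomial interval. The scripts were tested on simulated data.

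The members, lists (from textbook knowledge), markers and comparisons were chosen with earlier results of these data known. By rule the text names each member, its 3 most alike genes, up to 4 genes per list with the lowest adjusted p in day 12 against day 0, and Spi1 and Itgam. Marker genes are named besides, and Arg1 and others where stated. Further marker lists were read. Between day 4 and day 12, the genes called higher were 3 of 6 macrophage and monocyte, 2 of 4 erythroid, 1 of 3 megakaryocyte, 0 of 2 B cell, 2 of 2 T and NK cell, and 1 of 3 dendritic cell markers. Of these lists only the macrophage and monocyte one held a gene called lower, 1 of 6. Over all genes 14.7% were called higher and 12.3% lower between these days. Alternatives were DESeq2 1.42.0, limma-voom (limma 3.58.1), RLE factors, scaling by library size, no filter, a replicate block, only the 4 libraries compared, and leaving out each library.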

Additional observations from a re-analysis of the deposited data

Results flagged for a closer look

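In 6 of the 7 genes the response at day 12 of doxycycline differed from the response at day 4, by the direct edgeR test of day 12 against day 4 (n = 2 libraries each, both times measured against the same day 0 libraries). The log2 fold was -5.25 for Camp, -4.26 for S100a8, -1.91 for S100a9 and -0.62 for Lcn2, all lower at day 12. It was 1.42 for Ltf and 1.26 for Padi4, both higher at day 12. Over all genes 14.7% were called higher and 12.3% lower at day 12 than at day 4. The libraries of these 2 days did not overlap in any of the 7, Ngp included. The share of all genes without overlap was not counted. Ngp, with a log2 fold of -0.46, did not pass (edgeR adjusted p = 0.17).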

How the results depend on the processing

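Of 1069 log2 folds of the 7 genes recomputed under these alternatives, 1028 kept their side of the threshold. Another 31 were no longer called, 10 became called, and 0 of the called ones reversed. Changes of direction in folds called in neither fit were not counted. The day of the peak moved in 0 of 28 recomputations. The fit of only the 4 libraries compared called 7 of the 7 genes between day 8 and day 12 (4 in the fit of all 16), 4 in Cd11b-high against total cells (0) and 0 between 8 and 12 days off (4). The cause was not tested. Leaving out 1 library gave 3 to 4 members called between day 4 and day 8 (5 with all) and 2 to 4 between 8 and 12 days off.

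Counts of all genes called moved more. Called genes went from 1903 to 2888 with the 4 libraries alone, and to 590 to 1217 without 1 library, between day 4 and day 8. Between day 8 and day 12 they went from 306 to 3402 and to 77 to 113, and between day 4 and day 12 from 3687 to 5613 and to 1427 to 3099. Between 8 and 12 days off 507 genes were called, against 1195 with DESeq2, 987 with the replicate block, 0 with the 4 libraries alone and 29 to 6159 without 1 library, the highest without library B of 12 days off. In Cd11b-high against total cells there were 2 calls, against 15 with DESeq2, 3 with the replicate block, 1 with library size alone or limma-voom, 313 with the 4 libraries alone and 1 without any 1 library. At 12 days off against day 0, 5950 calls became 2160 with the 4 libraries alone. Without 1 library, calls fell to as few as 2522 of 5029 (4 days off against day 12), 1532 of 3276 (8 against 4 days off), 3031 of 5171 (4 days off against day 0) and 2533 of 4525 (8 days off against day 0).

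With library size alone as the scale, the median log2 fold of all genes shifted by -0.135 in day 12 against day 0, by -0.138 against day 4, and by 0.116 and 0.104 in 4 and 12 days off against day 12, which changed no call of the 7 genes. The letters A and B were not taken as pairs: across genes, A minus B had a correlation over 0.1 in only 11 of 28 pairs of groups (-0.217 to 0.545). With a replicate block the members called at 12 days off against day 0 went from 3 to 4 (Lcn2, log2 fold -0.59, edgeR adjusted p = 0.038), and no other call of the 7 genes changed. Depth limits Camp, Ltf and Ngp at day 0 and from 8 days off on, where groups had 1 to 9 reads. It also limits S100a8, with 8 reads, and S100a9, with 23, at 12 days off.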

Other observations

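The 7 genes together took 0.0034% and 0.00447% of all reads in libraries A and B of day 0, 0.305% and 0.232% at day 4, 0.0711% and 0.0702% at day 12, and 0.00337% and 0.00401% at 12 days off. S100a8 and S100a9 made up 86.8% and 82.0% of these reads at day 4, 54.7% and 54.5% at day 12, and 1.31% and 2.57% at 12 days off, where most of the rest was Padi4.

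Camp, Ngp and Ltf share a stretch of chromosome 9, and the 17 other measured genes between Camp and Ltf were read after the values of the 3 had been seen. From day 0 to day 4, 6 of the 17 were called higher, beside 28.2% of all genes, and 4 lower, beside 31%. Their median log2 fold was 0.27. The highest log2 fold among them was 3.95, for Als2cl, against 7.89 for Camp and 4.40 for Ltf. The value of Ltf rests on 5 reads in day 0 library A and 0 in B, and without B it was 3.62, under the 3.95 that Als2cl had with all libraries. From day 4 to day 12, 2 were called higher, beside 14.7% of all genes, and 2 lower, beside 12.3%.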
